A study of Saccharomyces cerevisiae with 17 samples.

Results

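Brewing yeast takes up amino acids from wort and makes the rest itself, and the genes described here encode the synthesis of arginine, histidine, lysine, the aromatic amino acids, threonine, serine and glycine, glutamate and glutamine, proline and asparagine. The branched-chain and sulfur pathways are not included. The genes were taken from a list of 53 Saccharomyces cerevisiae synthesis genes in 9 pathways. They were chosen by name, with earlier results of these data known. Of these, 52 were read by a probe set among the 5449 S. cerevisiae genes tested, and TRP1 was not analysed here. They were 7 arginine, 7 histidine, 7 lysine, 11 aromatic, 5 threonine, 6 serine and glycine, 4 glutamate and glutamine, 3 proline and 2 asparagine genes.

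RNA of the lager strain CB11 was hybridised to 17 Affymetrix yeast arrays in 6 groups. Fermentation samples were taken 8, 30 and 60 h after pitching (n = 3, 2 and 3 arrays) from a 3275 hL cylindroconical vessel whose wort had been oxygenated to 25 mg per L before filling, with yeast that had already been through earlier fermentations. Propagation samples were taken 0, 8 and 30 h after inoculation (n = 3 arrays each) from an aerated 140 hL vessel held at 20 °C and 7 to 8 mg oxygen per L. The fermentation 8 h samples were taken 5 h after the last wort was added, and a fermentation temperature is not given here. Both worts were 85% malt and 15% sugar adjunct. The replicates A, B and C of a group were drawn from 1 vessel, so p-values measure the spread between samples of that vessel, and stage cannot be told apart from vessel, oxygen and yeast history. Lager strains carry 2 parental genomes, of which 1 is S. cerevisiae, and a probe set may read transcripts of both. The purpose given by the study's title is the oxidative stress response in these 2 stages, so the synthesis genes are an additional readout of the same arrays.

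As background, most of these pathways are under general amino acid control: when uncharged tRNA accumulates, the kinase Gcn2 favours translation of the transcription factor Gcn4, which activates synthesis genes across many pathways. Single pathways have switches of their own, such as Lys14 for lysine and the ArgR/Mcm1 complex for arginine, and glutamate and glutamine synthesis also answers to nitrogen supply through Gln3 and Gat1 and to mitochondrial signals through the Rtg proteins. In brewing wort, amino acids are taken up in a set order and run low late in fermentation. Gcn4 is controlled largely at translation, which an array of transcripts does not read.

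All values are log2 expression values from the authors' RMA processing, and a difference of 1 is a 2-fold change of the array signal. A gene rose, fell or changed where its adjusted p in a limma fit over all 17 arrays and 5449 genes was under 0.05. Over all genes the 6 later propagation arrays, those of 8 h and 30 h, were unlike the remaining 11, with correlations of 0.369 to 0.563 against 0.73 to 0.998 among the 11. They also read 12.16 to 12.85 on the hybridisation controls, against 4.83 to 10.69 on the others, and their median over 13 meiosis and sporulation markers was 7.18 to 8.13, against 4.72 to 6.04. Propagation 0 h array A lay far from arrays B and C (SD of the differences over the 52 genes 0.958 and 0.936, against 0.262 between B and C) and had the largest gap between 3-prime and 5-prime control signal, 4.39. Arrays B and C of fermentation 8 h were nearly identical, with an SD of 0.0949 over the 52 genes, and were kept as separate arrays. Of the 52 genes, 48 were above the 95th percentile of the probe sets for another species on every array. The exceptions were HIS2 on 1 array, LYS4 on 1, TRP4 on 4 and HOM3 on 4.

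During propagation most of the synthesis genes were lower than at inoculation. At 8 h 4 of 52 had risen and 35 had fallen, against 24.3% risen and 43.1% fallen among all genes tested (67.4% changed). At 30 h 8 had risen and 33 had fallen, against 28.6% and 38.7% (67.3% changed). The members' median change was -1.40 at 8 h and -1.29 at 30 h, the median of all genes was -0.44 and -0.25, and the 2724 genes of highest mean signal, which held 34 of the 52, had medians of -0.74 and -0.60. Because the median of all genes was not 0, the splits were also read on recentred arrays, where 7 rose and 32 fell at 8 h and 9 rose and 32 fell at 30 h. With quantile normalised arrays 10 rose and 32 fell at 8 h. The shares of all genes above belong to the values as deposited, and shares after either rescaling are not given here. These 2 comparisons rest on the 6 arrays that stood apart, and in the same arrays 10 of 13 meiosis markers at 8 h and 12 of 13 at 30 h, and 8 of 11 haploid mating markers at both times, were higher than at 0 h. The part of that shift in the fall of the synthesis genes was not tested. Without array A of propagation 0 h the counts were 4 higher and 37 lower at 8 h and 7 higher and 35 lower at 30 h, again without a share of all genes for that fit. Between 30 h and 8 h LYS12 fell and HIS7 rose, 3.85% of the 52 against 5.01% of all genes (3.08% risen and 1.93% fallen), and HIS7 lost its call under 18 of 27 alternative settings. Propagation 8 h and 30 h are both set against the same 3 arrays of 0 h.

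In fermentation the group as a whole moved little, and single genes moved strongly in opposite directions. Between 60 h and 8 h 5 genes rose (ARG1, ARG3, HIS7, SER3 and GDH3) and 3 fell (LYS9, LYS12 and GLN1). That is 15.4% of the 52, against 15.9% of all genes (9.21% risen and 6.64% fallen), with a median of -0.01 against 0.08, so the share of changed genes was near that of the array as a whole. On recentred arrays 4 rose and 8 fell. Without array A of propagation 0 h, which enters only through the shared estimate of spread, the count was 19 in place of 8, and without array B of fermentation 8 h it was 5. With the replicate block CPA1 (1.13, adjusted p = 0.0145), TRP4 (-0.70, adjusted p = 0.0499), GDH1 and PRO3 (-0.96, adjusted p = 0.016) passed as well, making 12. Shares of all genes for the recentred, left-out and block fits are not given here. Between 60 h and 30 h GDH3 rose and LYS9 and GDH1 fell (5.77%, against 4.31% of all genes, 2.84% risen and 1.47% fallen), and without array C of fermentation 30 h no gene passed. Between 30 h and 8 h no synthesis gene passed in limma, and no gene of the whole array did (0%). At an unadjusted p under 0.05, 3 of the 52 and 189 of all genes changed there. When the arrays were weighted 6 of the 52 passed, a count given without its share of all genes. The limma F test over the 3 fermentation times called 8 of 52 (15.4%), against 10.9% of all genes.

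Against the yeast at inoculation of the propagation, 10 genes were higher and 11 lower at fermentation 8 h (40.4% changed, against 28.1% of all genes, 16.5% higher and 11.5% lower). With arrays B and C of fermentation 8 h averaged, or with either left out, 13 passed. At fermentation 60 h 13 were higher and 13 lower (50% changed, against 41% of all genes, 25.3% higher and 15.7% lower), and on recentred arrays 11 and 19. Without array A of propagation 0 h the counts were 8 higher and 22 lower at 8 h and 12 higher and 20 lower at 60 h. The shares of all genes above belong to the fit of all 17 arrays as deposited. Shares for the averaged, recentred and left-out fits are not given here, so those counts show no excess over the array. With the replicate block 2 more genes passed at 8 h, HIS3 and LYS21, and 4 more at 60 h, HIS5 (0.49, adjusted p = 0.0476), LYS4 (-1.04, adjusted p = 0.0428), LYS21 and ARO4 (-0.97, adjusted p = 0.0455), and none was lost. Both comparisons share the 3 arrays of propagation 0 h. At 60 h histidine genes had a median change of 1.16 with 4 up and 2 down, serine genes 0.82 with 4 up, and arginine genes 0.46 with 3 up, while lysine genes had -1.04 with 4 down and none up. Glutamate and glutamine genes had 2 up and 1 down, and among the rest 2 aromatic, 2 threonine, 1 proline and 1 asparagine gene were down and none up. The median of all genes was 0.18. Over the 27 alternative settings these medians ran from 0.79 to 1.16 for histidine, 0.65 to 0.91 for serine, 0.27 to 0.76 for arginine and -1.20 to -1.01 for lysine genes. No test between pathways was made.

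**Figure D1:**
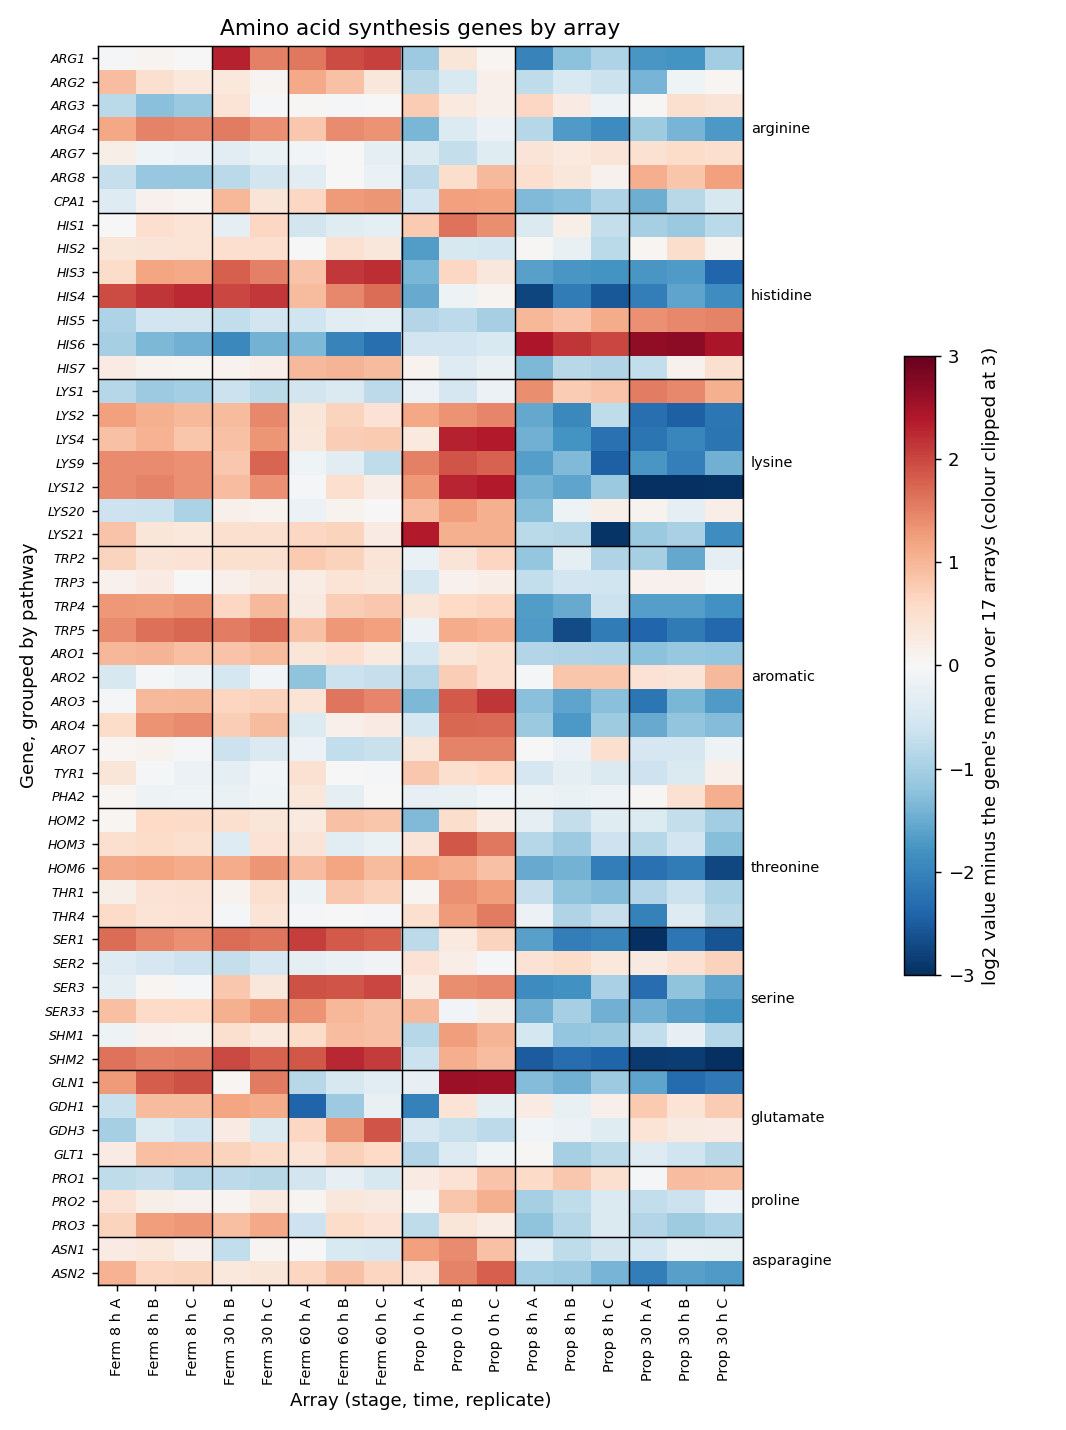
Log2 value of each of the 52 genes (rows, grouped by pathway) on each of the 17 arrays (columns), as the difference from the gene's mean over the arrays, with colours clipped at 3. Most rows are low on the 6 arrays of propagation 8 h and 30 h, HIS5, HIS6 and LYS1 are high there, and propagation 0 h array A differs from B and C in many rows.

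**Figure D2:**
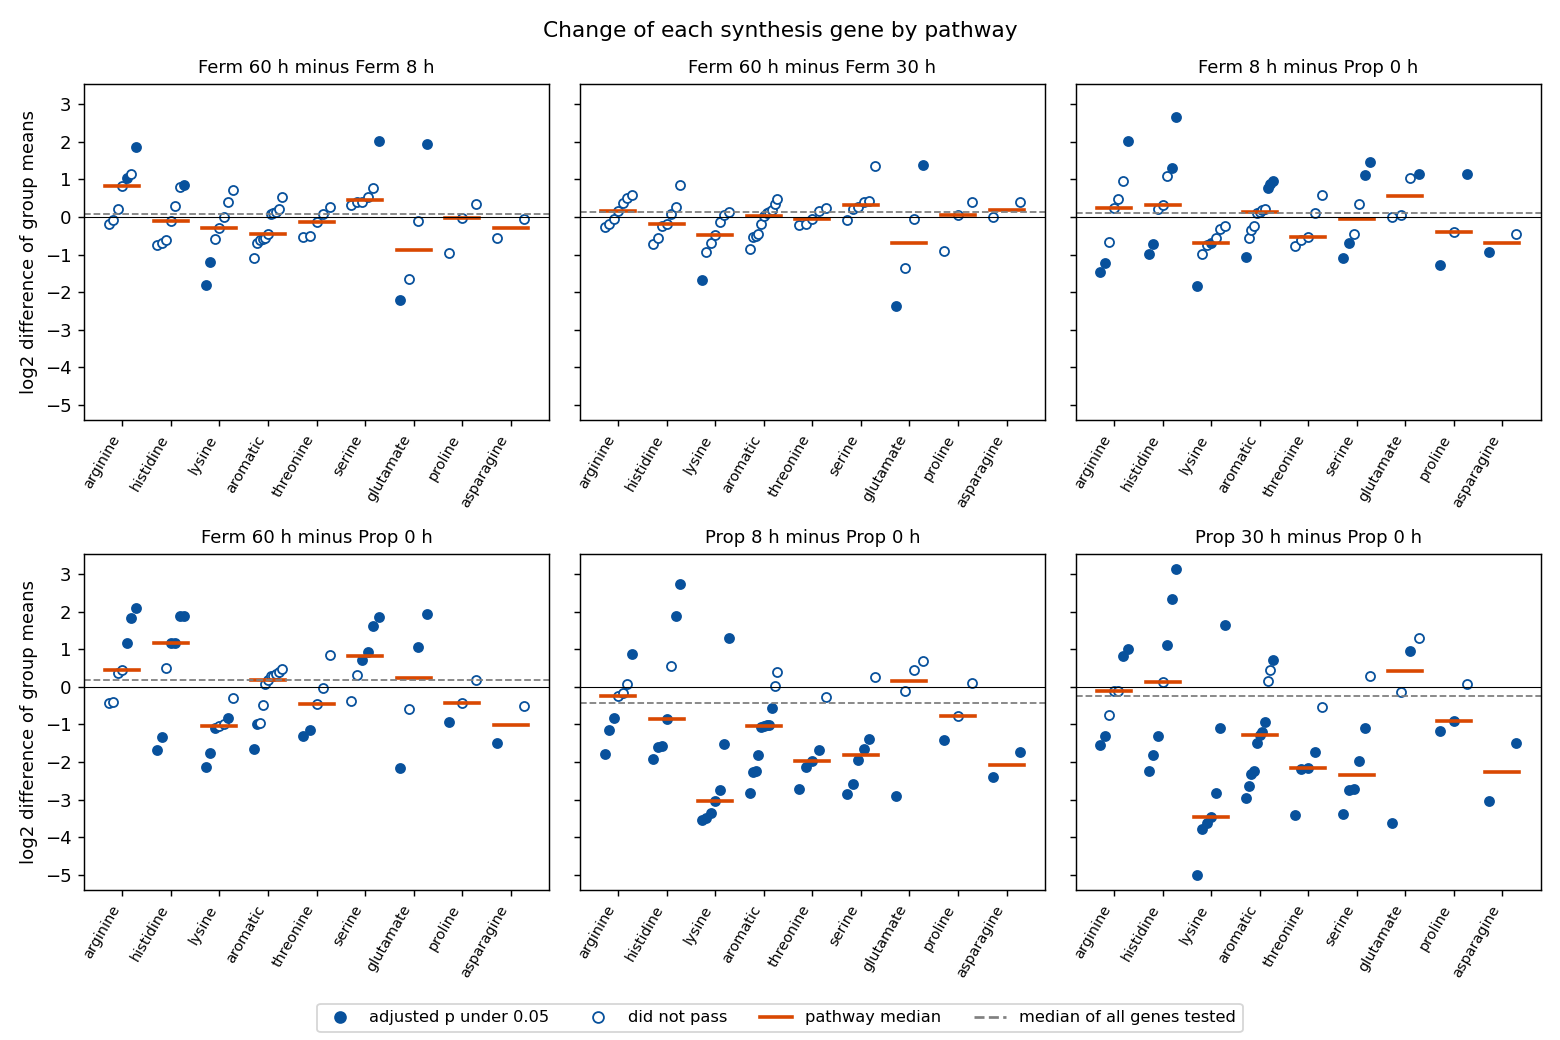
Log2 difference of group means for each gene, by pathway, in the 6 main comparisons; filled points had an adjusted p under 0.05, bars are pathway medians and the dashed line is the median of all genes tested. The lysine genes have the lowest median in both propagation comparisons, -3.04 and -3.47, and fermentation differences are smaller and run both ways.

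The lysine pathway showed the largest fall in propagation of the 9 pathways by median. Its median change was -3.04 at propagation 8 h (-2.70 on recentred arrays) and -3.47 at 30 h. At both times 6 of 7 genes were lower, against 43.1% and 38.7% of all genes, and 1 was higher, against 24.3% and 28.6%. The gene that rose was LYS1, which encodes the saccharopine dehydrogenase of the last step: its values were 8.77, 8.46 and 8.77 at propagation 0 h, 10.36, 9.72 and 9.81 at 8 h and 10.49, 10.39 and 10.02 at 30 h. All 6 later arrays were above the 3 at 0 h, and LYS1 rose by 1.29 (adjusted p = 7.44e-05) and rose by 1.63 (adjusted p = 6.14e-06).

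LYS12, encoding homoisocitrate dehydrogenase, had the largest single fall among the 52 genes. It read 10.29, 11.27 and 11.38 at propagation 0 h, 7.57, 7.41 and 7.88 at 8 h and 6.01, 5.91 and 6.02 at 30 h, 3 levels that do not overlap. LYS12 fell by 3.36 ± 0.27 (SE, adjusted p = 2.52e-08) at 8 h and fell by 5.0 ± 0.27 (SE, adjusted p = 4.4e-10), or 32-fold, at 30 h, and it was the 1 gene that fell between the 2 later times, by 1.64 at 30 h against 8 h (adjusted p = 0.00144). LYS9, for the saccharopine dehydrogenase that precedes Lys1, read 10.35, 10.74 and 10.61 at propagation 0 h, 7.20, 7.52 and 6.40 at 8 h and 7.10, 6.79 and 7.39 at 30 h. Its 6 later arrays lay below all 3 at inoculation, and it fell by 3.53 at 8 h (11.5-fold, adjusted p = 4.57e-08) and fell by 3.47 at 30 h. LYS2 (aminoadipate reductase) changed by -2.74 and -3.62, and LYS4 (homoaconitase) by -3.48 and -3.77, also past the threshold at both times. LYS4 on propagation 8 h array C was under the background percentile.

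The pathway's first step is made by 2 homocitrate synthases, which both fell in propagation. LYS20 read 10.59, 10.93 and 10.73 at propagation 0 h, 8.39, 9.51 and 9.83 at 8 h and 9.76, 9.38 and 9.86 at 30 h, and LYS21 read 11.25, 9.95 and 9.94 at propagation 0 h, 8.07, 8.01 and 5.92 at 8 h and 7.77, 7.91 and 7.01 at 30 h. In both genes every later array was below every array at 0 h. LYS20 changed by -1.51 and -1.08 and LYS21 by -3.04 and -2.82. With quantile normalised arrays the LYS20 change at 30 h was -0.57 (adjusted p = 0.131). In fermentation LYS20 read 9.04, 9.02 and 8.71 at fermentation 8 h, 9.83 and 9.76 at 30 h and 9.50, 9.78 and 9.68 at 60 h, all below propagation 0 h, and LYS21 read 9.72, 9.23 and 9.18 at fermentation 8 h, 9.35 and 9.34 at 30 h and 9.50, 9.53 and 9.12 at 60 h. LYS20 fell by 1.83 ± 0.29 (SE, adjusted p = 0.000216) at 8 h and fell by 1.10 (adjusted p = 0.00671) at 60 h, whereas LYS21 changed by -1.0 (95% interval -2.0 to 0.0, adjusted p = 0.129) and by -0.99 (95% interval -1.99 to 0.0, adjusted p = 0.103). Both LYS21 differences passed with the replicate block (adjusted p = 0.0477 and 0.0364). The difference between the 2 genes was not tested.

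Within fermentation 2 of 7 lysine genes were lower at 60 h than at 8 h, against 6.64% of all genes. LYS9 read 10.25, 10.26 and 10.22 at fermentation 8 h, 9.65 and 10.59 at 30 h and 8.72, 8.51 and 8.08 at 60 h. The 3 arrays at 60 h were below the other 5, and the gene fell by 1.81 ± 0.30 (SE, adjusted p = 0.000708) against 8 h and fell by 1.68 (adjusted p = 0.0108) against 30 h. Without array C of fermentation 30 h the second difference was -1.21 (adjusted p = 0.359). LYS12 read 10.41, 10.48 and 10.36 at fermentation 8 h, 9.92 and 10.37 at 30 h and 8.95, 9.50 and 9.19 at 60 h, again lowest at 60 h without overlap. It fell by 1.20 ± 0.27 (SE, adjusted p = 0.00611) against 8 h, and by 1.77 against propagation 0 h (adjusted p = 8.38e-05), where LYS9 fell by 2.13 and LYS2 by 0.83. LYS2 lost its call without array C of propagation 0 h or without array A or C of fermentation 60 h (adjusted p 0.0526 to 0.0561). LYS1 differed between fermentation 60 h and 8 h by 0.40 (95% interval -0.07 to 0.87, adjusted p = 0.253).

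**Figure D3:**
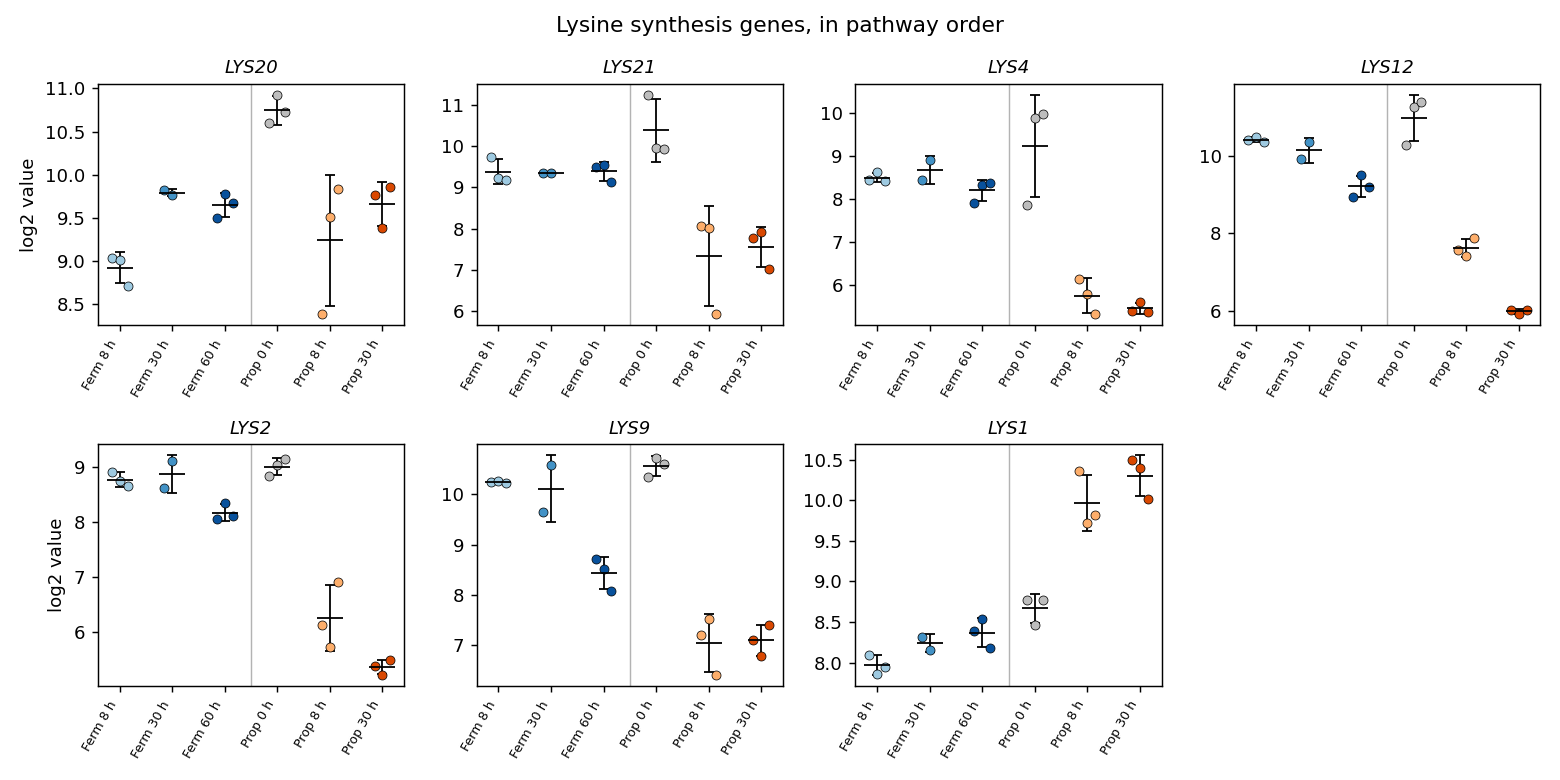
Log2 values of the 7 lysine genes on every array (points), with group mean and SD (bars), fermentation at the left and propagation at the right of each panel. LYS9 and LYS12 are lowest within fermentation at 60 h and drop at propagation 8 h and 30 h, where LYS1 is higher than at 0 h.

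The glutamate and glutamine genes did not move together. GLN1, for glutamine synthetase, read 10.96, 11.51 and 11.61 at fermentation 8 h, 9.75 and 11.25 at 30 h and 8.85, 9.21 and 9.36 at 60 h, against 9.44, 12.26 and 12.23 at propagation 0 h. The values at 60 h lay below all others of the fermentation, and array A of propagation 0 h was far below B and C. GLN1 fell by 2.22 ± 0.56 (SE, adjusted p = 0.0126) at 60 h against 8 h, or 4.65-fold, and fell by 2.17 ± 0.56 (SE, adjusted p = 0.00536) against propagation 0 h. The first call was lost with arrays B and C of fermentation 8 h averaged (-2.12, adjusted p = 0.0537) and without either of them (adjusted p = 0.051 and 0.0566), and the second when only the arrays of the 2 groups were fitted (adjusted p = 0.0671). In propagation GLN1 read 9.44, 12.26 and 12.23 at propagation 0 h, 8.39, 8.25 and 8.59 at 8 h and 8.12, 7.39 and 7.55 at 30 h, and fell by 2.90 at 8 h (adjusted p = 0.000218) and by 3.62 at 30 h (12.3-fold).

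GDH1 and GDH3 encode the 2 NADP-dependent glutamate dehydrogenases, which fix ammonium into glutamate. GDH3 is known as the isoform of respiring and stationary cells. In fermentation GDH1 read 9.26, 10.88 and 10.89 at fermentation 8 h, 11.11 and 11.05 at 30 h and 7.54, 8.84 and 9.72 at 60 h, and GDH3 read 6.38, 6.98 and 6.79 at fermentation 8 h, 7.62 and 6.96 at 30 h and 8.0, 8.70 and 9.28 at 60 h. GDH3 was highest on all 3 arrays at 60 h, and GDH1 was lower at 60 h than on both arrays of 30 h while overlapping 8 h. At 60 h against 30 h GDH1 fell by 2.38 ± 0.64 (SE, adjusted p = 0.0455) and GDH3 rose by 1.37 ± 0.32 (SE, adjusted p = 0.0221), 1 down and 1 up. Both calls were weak: GDH1 lost its call under 14 of the 27 alternative settings, with adjusted p up to 0.397 without array C of fermentation 30 h, and GDH3 under 6, with adjusted p up to 0.446 without the same array. Against 8 h GDH3 rose by 1.94 ± 0.29 (SE, adjusted p = 0.000263) and held under every setting, while GDH1 differed by -1.64 (95% interval -2.86 to -0.43, adjusted p = 0.0624). With the replicate letter as a block, taken as marking pairs in this comparison, GDH1 passed (adjusted p = 0.0219), as it did without array A of fermentation 8 h (-2.18, adjusted p = 0.0231), without array C of fermentation 60 h (-2.15, adjusted p = 0.0289) or without array A or B of propagation 0 h. The difference between the changes of the 2 genes was not tested.

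In propagation GDH1 read 7.90, 10.35 and 9.63 at propagation 0 h, 10.18, 9.70 and 10.10 at 8 h and 10.72, 10.34 and 10.71 at 30 h, and GDH3 read 6.88, 6.70 and 6.61 at propagation 0 h, 7.31, 7.21 and 7.01 at 8 h and 7.80, 7.65 and 7.62 at 30 h. GDH3 was higher on every later array than at 0 h and rose by 0.96 (adjusted p = 0.00681) at 30 h. At 8 h it differed by 0.45 (95% interval -0.16 to 1.05, adjusted p = 0.177), and GDH1 at 30 h differed by 1.29 (95% interval 0.08 to 2.51, adjusted p = 0.056), and was called on recentred arrays (1.48, adjusted p = 0.0295). GLT1, for the glutamate synthase that works with Gln1, read 9.27, 9.94 and 9.91 at fermentation 8 h, 9.71 and 9.60 at 30 h and 9.44, 9.75 and 9.64 at 60 h, against 8.15, 8.63 and 8.90 at propagation 0 h. Every fermentation array was above every array of propagation 0 h, and GLT1 rose by 1.15 (adjusted p = 0.00674) at 8 h and rose by 1.05 (adjusted p = 0.00778) at 60 h. It did not change between fermentation times past the threshold.

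Of the 6 serine and glycine genes, 4 were higher at fermentation 60 h than at propagation 0 h and 5 fell within propagation. Of all genes 25.3% were higher at fermentation 60 h, and 43.1% and 38.7% fell at propagation 8 h and 30 h. SER3 and SER33 encode the 2 phosphoglycerate dehydrogenases that open the pathway. SER3 read 7.32, 7.67 and 7.58 at fermentation 8 h, 8.41 and 7.94 at 30 h and 9.51, 9.50 and 9.61 at 60 h, against 7.82, 8.99 and 9.04 at propagation 0 h. Its values at 60 h were above every other array of the study, and it rose by 2.02 ± 0.34 (SE, adjusted p = 0.000862) against 8 h, or 4.05-fold, a call that held under every setting. Against propagation 0 h it fell by 1.10 (adjusted p = 0.0249) at 8 h and rose by 0.92 (adjusted p = 0.0417) at 60 h, but without array A of propagation 0 h the second difference was 0.52 (adjusted p = 0.166), it also failed without any single array of fermentation 60 h (adjusted p 0.0769 to 0.0979), and the first was lost without 5 of the 6 arrays compared, taken 1 at a time (adjusted p 0.0507 to 0.0973). SER33 read 9.44, 9.12 and 9.15 at fermentation 8 h, 9.62 and 9.81 at 30 h and 9.90, 9.55 and 9.42 at 60 h, against 9.52, 8.46 and 8.71 at propagation 0 h. The 60 h values overlapped those of 8 h and of 30 h, and SER33 differed by 0.39 (95% interval -0.17 to 0.94, adjusted p = 0.366) at 60 h against 8 h. It rose by 0.72 (adjusted p = 0.0362) against propagation 0 h, a call lost without array B (0.51) or C (0.63) of propagation 0 h or array A (0.59) or B (0.76) of fermentation 60 h, and on recentred arrays (0.56).

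SER1, for phosphoserine aminotransferase, read 10.76, 10.56 and 10.47 at fermentation 8 h, 10.76 and 10.70 at 30 h and 11.17, 10.94 and 10.86 at 60 h, against 8.31, 9.39 and 9.75 at propagation 0 h. All 8 fermentation arrays were above the 3 of propagation 0 h, and SER1 rose by 1.45 ± 0.33 (SE, adjusted p = 0.00334) at 8 h and rose by 1.84 ± 0.33 (SE, adjusted p = 0.000319) at 60 h, both held under every setting. SHM2, the cytosolic serine hydroxymethyltransferase that makes glycine and one-carbon units, read 12.12, 12.01 and 12.05 at fermentation 8 h, 12.48 and 12.28 at 30 h and 12.38, 12.76 and 12.61 at 60 h, against 9.86, 11.60 and 11.43. It also lay above propagation 0 h on every fermentation array. It rose by 1.10 (adjusted p = 0.0198) at 8 h and rose by 1.62 (adjusted p = 0.000997) at 60 h, and without array A of propagation 0 h these differences were 0.55 (adjusted p = 0.0374) and 1.07 (adjusted p = 0.000228). The call at 8 h was lost without any single array of fermentation 8 h (adjusted p 0.0512 to 0.0549). SHM1, the mitochondrial enzyme, read 9.89, 10.15 and 10.13 at fermentation 8 h, 10.52 and 10.34 at 30 h and 10.59, 10.95 and 10.90 at 60 h, against 9.17, 11.29 and 11.04, and differed from propagation 0 h by -0.45 (95% interval -1.29 to 0.40, adjusted p = 0.453) at 8 h and 0.31 (95% interval -0.53 to 1.16, adjusted p = 0.561) at 60 h. Without array A of propagation 0 h the difference of SHM1 at 8 h was -1.11 and passed (adjusted p = 0.00168).

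In propagation 5 of the 6 serine and glycine genes fell at both times, and SER2, the phosphatase of the last step, differed by 0.25 (95% interval -0.17 to 0.68, adjusted p = 0.279) at 8 h. SHM2 read 9.86, 11.60 and 11.43 at propagation 0 h, 8.01, 8.22 and 8.11 at 8 h and 7.64, 7.66 and 7.41 at 30 h, with later arrays far below all at 0 h, and fell by 2.85 ± 0.33 (SE, adjusted p = 1.09e-06) and fell by 3.39 ± 0.33 (SE, adjusted p = 1.32e-07), or 10.5-fold at 30 h. SHM1 read 9.17, 11.29 and 11.04 at propagation 0 h, 9.51, 8.86 and 8.93 at 8 h and 9.28, 9.78 and 9.18 at 30 h, where array A of 0 h lay among the later arrays. It fell by 1.40 (adjusted p = 0.00531) and fell by 1.09 (adjusted p = 0.0236), and the change at 30 h was -1.75 without array A of 0 h, -0.69 (adjusted p = 0.141) without B and -0.82 (adjusted p = 0.112) without C. It also failed without array A or C of propagation 30 h. SER3 read 7.82, 8.99 and 9.04 at propagation 0 h, 5.72, 5.78 and 6.63 at 8 h and 5.31, 6.40 and 6.02 at 30 h, and SER33 read 9.52, 8.46 and 8.71 at propagation 0 h, 7.11, 7.55 and 7.09 at 8 h and 7.10, 6.91 and 6.75 at 30 h. Neither overlapped its values at inoculation, with changes of -2.58 and -2.71 for SER3 and -1.65 and -1.98 for SER33. SER1 fell by 1.95 at 8 h and by 2.74 at 30 h.

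**Figure D4:**
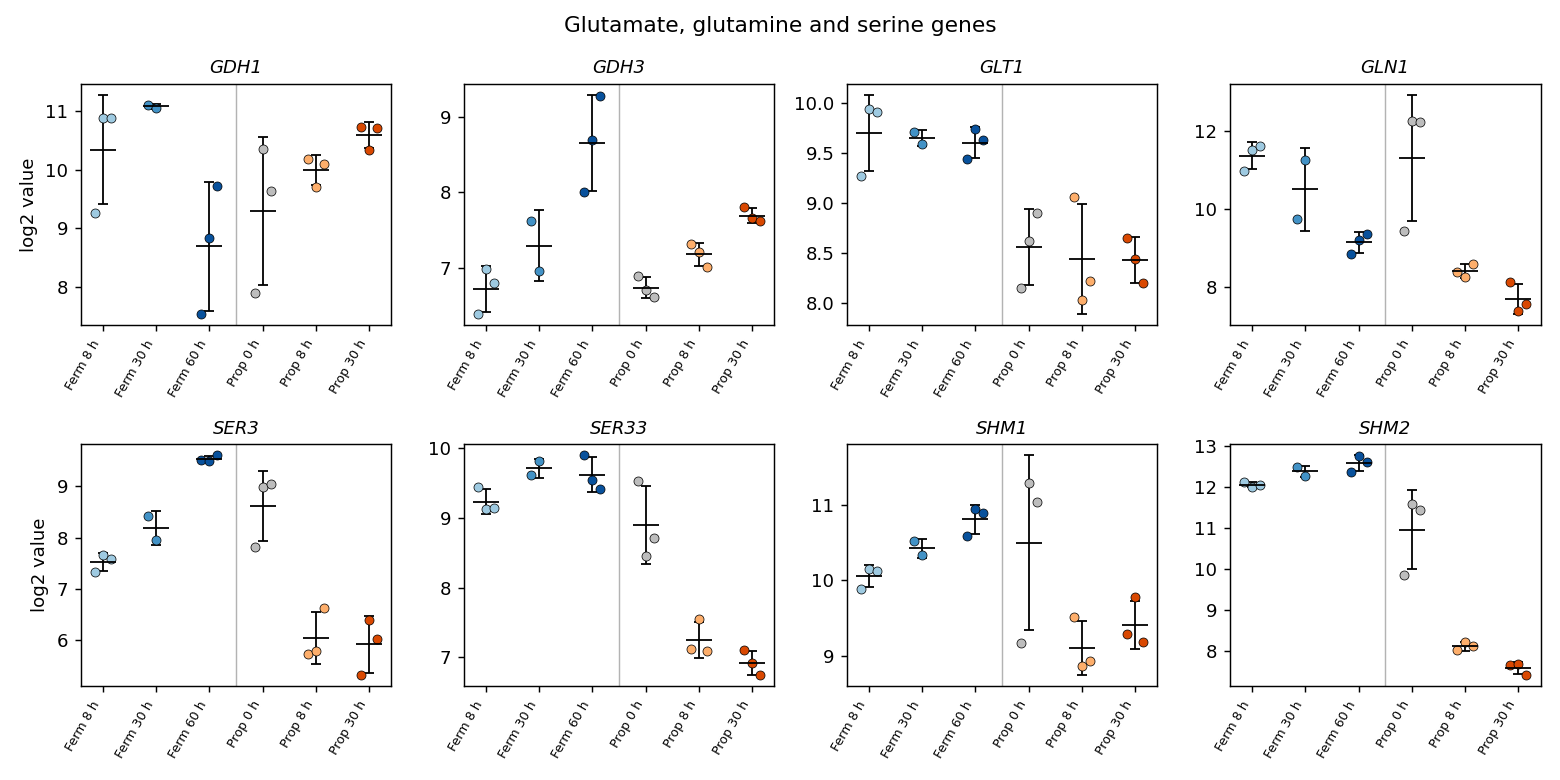
Log2 values of 4 glutamate and glutamine genes and 4 serine and glycine genes on every array (points), with group mean and SD (bars), fermentation at the left and propagation at the right of each panel. GDH3 and SER3 are highest at fermentation 60 h and GLN1 is lowest there within fermentation; SHM2 is above 12 at every fermentation time and below 8.3 at propagation 8 h and 30 h.

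In late fermentation 2 of 7 arginine genes rose from 8 h to 60 h, against 9.21% of all genes. In propagation the pathway changed in both directions. ARG1, for argininosuccinate synthetase, read 8.28, 8.40 and 8.30 at fermentation 8 h, 10.62 and 9.82 at 30 h and 9.90, 10.27 and 10.37 at 60 h, against 7.22, 8.67 and 8.37 at propagation 0 h. The 30 h and 60 h arrays were all above the 8 h arrays and above propagation 0 h. ARG1 rose by 1.85 ± 0.36 (SE, adjusted p = 0.0024) against 8 h, or 3.61-fold, and rose by 2.09 ± 0.36 (SE, adjusted p = 0.000266) against propagation 0 h, both under every setting. At 30 h against 8 h its difference was 1.90 (95% interval 1.04 to 2.75, adjusted p = 0.241), although the unadjusted p was 0.000221. ARG3, for ornithine carbamoyltransferase, rose by 1.05 (adjusted p = 0.00848) at 60 h against 8 h, after lying 1.46 below propagation 0 h at 8 h (adjusted p = 0.000339). Without array B of fermentation 8 h the rise of ARG3 was 0.95 (adjusted p = 0.0532).

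ARG4, for the argininosuccinate lyase of the last step, was high throughout fermentation, at 10.15, 10.48 and 10.42 at fermentation 8 h, 10.54 and 10.34 at 30 h and 9.79, 10.39 and 10.32 at 60 h, against 7.62, 8.57 and 8.80 at propagation 0 h. No fermentation array overlapped, and ARG4 rose by 2.02 ± 0.32 (SE, adjusted p = 0.000211) at 8 h and rose by 1.83 ± 0.32 (SE, adjusted p = 0.000303) at 60 h. ARG2 (acetylglutamate synthase) was 1.17 higher at 60 h, or 0.99 (adjusted p = 0.0579) without array A of fermentation 60 h. ARG8, the mitochondrial acetylornithine aminotransferase, was lower at fermentation 8 h by 1.24, and without array C of propagation 0 h by 0.87 (adjusted p = 0.0561). CPA1, the small subunit of carbamoyl phosphate synthetase, read 9.18, 9.70 and 9.64 at fermentation 8 h, 10.57 and 9.95 at 30 h and 10.18, 10.84 and 10.89 at 60 h, against 8.98, 10.78 and 10.78, and differed from propagation 0 h by -0.67 (95% interval -1.53 to 0.18, adjusted p = 0.24) at 8 h and 0.46 (95% interval -0.40 to 1.31, adjusted p = 0.394) at 60 h. Without array A of propagation 0 h the difference of CPA1 at 8 h was -1.27 and passed (adjusted p = 0.00294).

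In propagation 1 arginine gene rose and 3 fell at 8 h, and 2 rose and 2 fell at 30 h. Of all genes 24.3% rose and 43.1% fell at 8 h, and 28.6% rose and 38.7% fell at 30 h. CPA1 read 8.98, 10.78 and 10.78 at propagation 0 h, 8.23, 8.30 and 8.63 at 8 h and 8.10, 8.73 and 9.08 at 30 h. Array A of 0 h was within the range of 30 h, and CPA1 fell by 1.79 (adjusted p = 0.000918) and fell by 1.54 (adjusted p = 0.00294). ARG7, the ornithine acetyltransferase, read 7.09, 6.82 and 7.16 at propagation 0 h, 7.92, 7.83 and 7.92 at 8 h and 7.98, 8.08 and 8.01 at 30 h, with every later array above those at 0 h, and rose by 0.87 (adjusted p = 0.000741) and rose by 0.99 (adjusted p = 0.000206). ARG8 rose by 0.81 (adjusted p = 0.0384) at 30 h, but by 0.30 (adjusted p = 0.241) without array A of 0 h, and it also failed without array A or C of 30 h (adjusted p = 0.0812 and 0.109).

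Histidine genes changed in opposite directions within the pathway. HIS6 (the isomerase of a middle step) and HIS5 (histidinol-phosphate aminotransferase) rose in propagation, while HIS1, HIS3 and HIS4 fell at both times. HIS6 read 7.91, 7.90 and 8.01 at propagation 0 h, 10.89, 10.63 and 10.47 at 8 h and 11.14, 11.15 and 10.93 at 30 h. All 6 later arrays were above 10, and the gene rose by 2.72 ± 0.24 (SE, adjusted p = 7.46e-08) and rose by 3.14 ± 0.24 (SE, adjusted p = 1.19e-08), or 8.79-fold at 30 h. HIS5 was higher by 1.87 and 2.32. HIS4, which encodes a multifunctional enzyme, read 7.28, 8.64 and 8.87 at propagation 0 h, 6.05, 6.71 and 6.24 at 8 h and 6.72, 7.21 and 6.94 at 30 h, with no overlap between 0 h and the later times, and fell by 1.93 (adjusted p = 8.78e-05) and fell by 1.31 (adjusted p = 0.00255). HIS1, for the feedback-inhibited first enzyme, changed by -1.61 and -2.25.

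In fermentation the same genes took other positions. HIS4 read 10.75, 10.94 and 11.03 at fermentation 8 h, 10.79 and 10.92 at 30 h and 9.74, 10.24 and 10.47 at 60 h, against 7.28, 8.64 and 8.87 at propagation 0 h. Every fermentation array was above every array of propagation 0 h, and HIS4 rose by 2.64 ± 0.34 (SE, adjusted p = 2.74e-05) at 8 h, or 6.25-fold, the largest rise of the 52 genes in that comparison, and rose by 1.89 ± 0.34 (SE, adjusted p = 0.000348) at 60 h. HIS6 read 7.47, 7.13 and 7.04 at fermentation 8 h, 6.55 and 7.05 at 30 h and 7.12, 6.47 and 6.21 at 60 h, against 7.91, 7.90 and 8.01, and fell by 0.73 at 8 h and by 1.34 at 60 h, with the 8 h call lost without array B or C of either group (adjusted p 0.0649 to 0.131). HIS1 was also lower, by 0.97 and 1.67, and the 8 h call was lost without array B or C of propagation 0 h or array A of fermentation 8 h (adjusted p 0.0549 to 0.0812). HIS3 was higher at 60 h by 1.87 (adjusted p = 0.00274), and at 8 h it differed by 1.09 (95% interval 0.17 to 2.02, adjusted p = 0.0737). HIS3 at 8 h passed with the replicate block (adjusted p = 0.0359) and without array B of propagation 0 h (1.47, adjusted p = 0.0254).

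HIS7, for the glutamine amidotransferase of the pathway, read 8.08, 7.93 and 7.91 at fermentation 8 h, 7.93 and 8.03 at 30 h and 8.81, 8.86 and 8.79 at 60 h, against 7.93, 7.45 and 7.61 at propagation 0 h. The 60 h arrays were the highest of the fermentation, and HIS7 rose by 0.84 (adjusted p = 0.0432) against 8 h, a call lost under 13 of the 27 settings, among them the loss of any single array of fermentation 8 h or 60 h (adjusted p 0.0693 to 0.133). Against propagation 0 h at 60 h it rose by 1.16 (adjusted p = 0.00273). In propagation HIS7 read 7.93, 7.45 and 7.61 at propagation 0 h, 6.48, 7.01 and 6.92 at 8 h and 7.08, 7.96 and 8.31 at 30 h, so that it fell by 0.86 (adjusted p = 0.00992) at 8 h and differed by 0.12 (95% interval -0.45 to 0.69, adjusted p = 0.698) at 30 h. The fall at 8 h was -0.51 (adjusted p = 0.0955) on recentred arrays. HIS2 (histidinol phosphatase) was higher at fermentation 8 h and 60 h by 1.29 and 1.18 and at propagation 30 h by 1.12, which was 0.73 without array A of propagation 0 h, where the gene was under the background percentile.

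**Figure D5:**
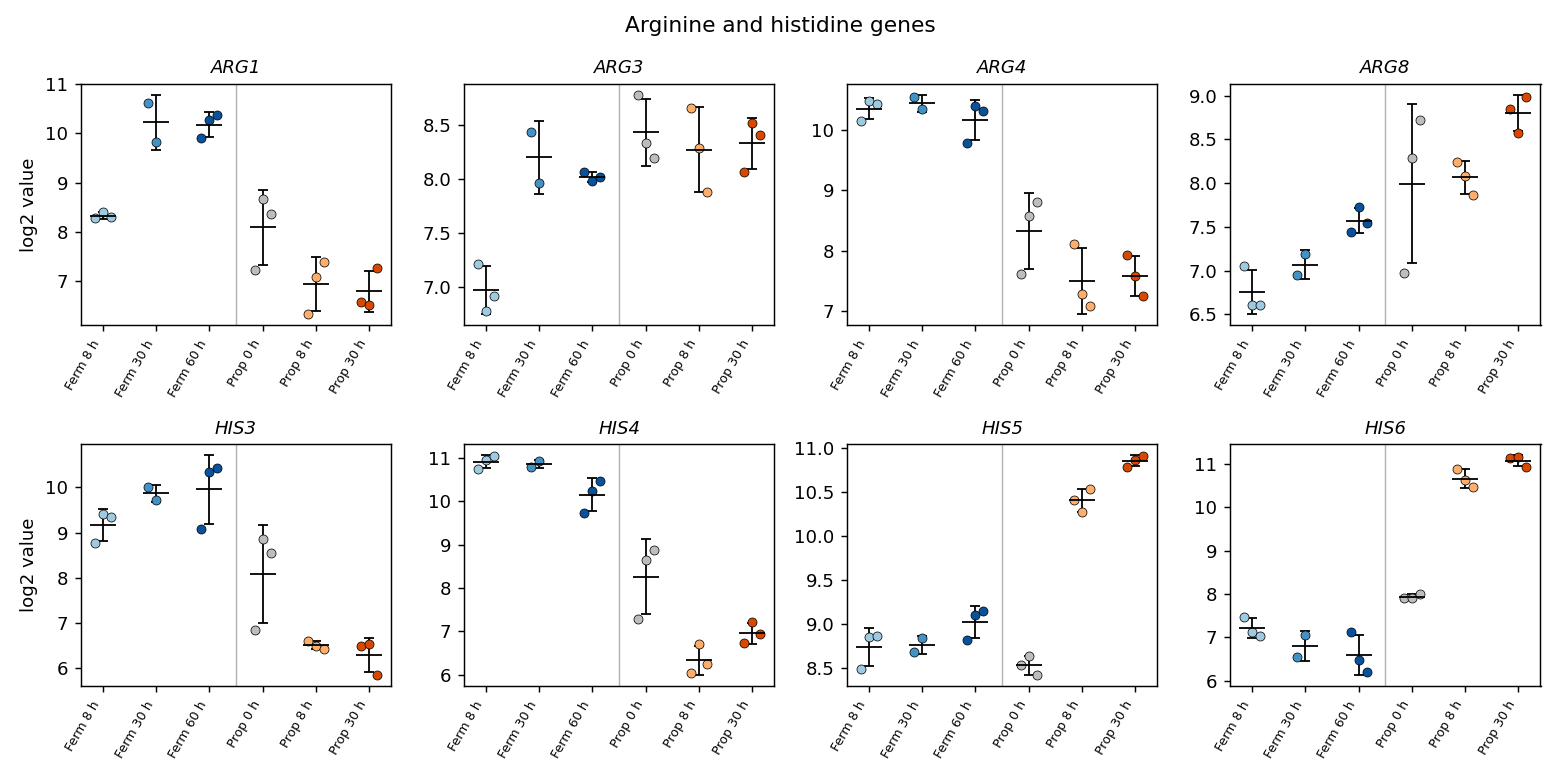
Log2 values of 4 arginine and 4 histidine genes on every array (points), with group mean and SD (bars), fermentation at the left and propagation at the right of each panel. ARG1 is higher at fermentation 30 h and 60 h than at 8 h, HIS4 and ARG4 are high at all fermentation times, and HIS5 and HIS6 are highest at propagation 8 h and 30 h.

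Most aromatic genes fell in propagation. Relative to propagation 0 h 4 of 11 changed at fermentation 8 h and 2 of 11 at 60 h, against 28.1% and 41% of all genes. At propagation 8 h 9 of 11 fell and none rose, against 43.1% and 24.3% of all genes. At 30 h 8 fell and 1, PHA2, rose, against 38.7% and 28.6%. TRP5, for tryptophan synthase, read 8.29, 9.57 and 9.51 at propagation 0 h, 6.78, 5.78 and 6.36 at 8 h and 6.08, 6.35 and 6.11 at 30 h. Its later arrays were all below those of 0 h, and it fell by 2.82 ± 0.31 (SE, adjusted p = 7.33e-07) and fell by 2.95 ± 0.31 (SE, adjusted p = 3.8e-07), or 7.71-fold at 30 h. PHA2 (prephenate dehydratase) rose by 0.71 at 30 h, and by 0.43 (adjusted p = 0.12) without array C of 30 h. ARO2, for chorismate synthase, was among those that did not pass, at 0.39 (95% interval -0.37 to 1.16, adjusted p = 0.35) at 8 h.

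ARO3 and ARO4 encode the 2 DAHP synthases that open the pathway, the first inhibited by phenylalanine and the second by tyrosine. ARO3 read 7.59, 10.76 and 11.07 at propagation 0 h, 7.68, 7.35 and 7.67 at 8 h and 6.75, 7.54 and 7.22 at 30 h, and ARO4 read 8.52, 10.77 and 10.74 at propagation 0 h, 7.94, 7.33 and 7.99 at 8 h and 7.52, 7.85 and 7.74 at 30 h. In both, array A of 0 h was well below B and C, and for ARO3 it lay among the arrays of 8 h. ARO3 changed by -2.24 and -2.63, and by -3.35 and -3.74 without that array. ARO4 changed by -2.26 and -2.31, and by -3.0 and -3.05 without it. In fermentation ARO3 read 8.87, 9.90 and 9.92 at fermentation 8 h, 9.58 and 9.61 at 30 h and 9.33, 10.54 and 10.39 at 60 h, and ARO4 read 9.59, 10.38 and 10.47 at fermentation 8 h, 9.79 and 9.98 at 30 h and 8.64, 9.19 and 9.29 at 60 h. ARO4 at 60 h lay below the arrays of 30 h and 8 h and differed from 8 h by -1.10 (95% interval -2.06 to -0.15, adjusted p = 0.109), while ARO3 differed by 0.53 (95% interval -0.82 to 1.87, adjusted p = 0.642). Neither passed, although ARO4 did without array A of propagation 0 h, which enters only through the spread (adjusted p = 0.0039), and the difference between them was not tested.

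ARO7, the chorismate mutase at the branch toward phenylalanine and tyrosine, read 7.36, 7.40 and 7.28 at fermentation 8 h, 6.65 and 6.88 at 30 h and 7.13, 6.57 and 6.64 at 60 h, against 7.66, 8.80 and 8.80 at propagation 0 h. All fermentation arrays were lower, and it fell by 1.07 (adjusted p = 0.0111) at 8 h and fell by 1.64 (adjusted p = 0.000305) at 60 h. The first call was lost without array B (-0.88, adjusted p = 0.052) or C (-0.88, adjusted p = 0.0508) of propagation 0 h. The genes TRP4, TRP5 and ARO1, the last for the pentafunctional enzyme of the shared stretch, rose at fermentation 8 h by 0.77, 0.94 and 0.87. TRP4 failed without any single array of the 2 groups (adjusted p 0.0508 to 0.0955). TRP5 failed without array A of propagation 0 h (0.52, adjusted p = 0.119) or array B or C of fermentation 8 h (adjusted p = 0.0945 and 0.107). ARO1 was 0.55 higher without array A of propagation 0 h. At 60 h the 2 changed aromatic genes were ARO7 and ARO2 (-0.98), and ARO2 was -1.47 without array A, -0.67 (adjusted p = 0.182) without B and -0.79 (adjusted p = 0.139) without C of propagation 0 h, and it failed without any single array of fermentation 60 h (adjusted p 0.0622 to 0.139).

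The threonine genes, which also supply homoserine to methionine, fell in propagation, 4 of 5 at both times. Of all genes 43.1% fell at 8 h and 38.7% at 30 h. HOM6, for homoserine dehydrogenase, read 10.25, 10.16 and 9.95 at propagation 0 h, 7.56, 7.66 and 7.0 at 8 h and 6.85, 6.97 and 6.34 at 30 h. The later arrays were all far below those of 0 h, and HOM6 fell by 2.72 ± 0.23 (SE, adjusted p = 3.8e-08) and fell by 3.40 ± 0.23 (SE, adjusted p = 2.81e-09), or 10.6-fold at 30 h. THR4 (threonine synthase) and THR1 (homoserine kinase) also fell at both times, by 1.69 and 2.19 for THR4 and by 1.97 and 1.72 for THR1. HOM3, the aspartate kinase of the first step, was under the background percentile on all 3 arrays of 8 h. Its group mean was 5.36 there, against 7.49 at 0 h (limma, adjusted p = 3.85e-05). With each 8 h array set to that percentile HOM3 was at least 4.08-fold lower, a bound that was not itself tested. HOM2 (aspartate semialdehyde dehydrogenase) differed by -0.26 (95% interval -1.04 to 0.52, adjusted p = 0.549) at 8 h, and by -0.82 (adjusted p = 0.00858) without array A of 0 h.

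At fermentation 60 h THR4 read 9.92, 9.97 and 9.91, against 10.44, 11.24 and 11.54 at propagation 0 h. The 2 groups did not overlap, and THR4 fell by 1.14 (adjusted p = 0.0169), but -1.06 (adjusted p = 0.0513) without array B and -0.91 (adjusted p = 0.0763) without array C of propagation 0 h. THR4 read 10.55, 10.38 and 10.41 at fermentation 8 h and 9.93 and 10.39 at 30 h. HOM3 was lower at 60 h by 1.31 (adjusted p = 0.00596). HOM6 read 10.21, 10.26 and 10.20 at fermentation 8 h, 10.19 and 10.40 at 30 h and 10.01, 10.26 and 10.03 at 60 h, a range that overlapped its values at propagation 0 h. No threonine gene changed at fermentation 8 h against propagation 0 h or between fermentation times. Without array A of propagation 0 h, however, HOM3 (-1.22, adjusted p = 0.00262), THR1 (-0.95, adjusted p = 0.0111) and THR4 (-0.94, adjusted p = 0.0412) were lower at fermentation 8 h. HOM2 and HOM6 passed there under none of the alternative settings.

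The 3 proline genes took 3 courses. PRO1, the feedback-controlled glutamyl kinase, read 7.80, 7.87 and 7.69 at fermentation 8 h, 7.78 and 7.73 at 30 h and 8.01, 8.32 and 8.09 at 60 h, against 8.80, 9.0 and 9.41 at propagation 0 h. It was lower on all fermentation arrays, and fell by 1.28 (adjusted p = 0.00148) at 8 h and fell by 0.93 (adjusted p = 0.00857) at 60 h. PRO2, for the next enzyme, read 8.75, 9.51 and 9.75 at propagation 0 h, 7.67, 7.90 and 8.23 at 8 h and 7.94, 8.02 and 8.51 at 30 h. Its later arrays were below all at 0 h, and it fell by 1.40 (adjusted p = 0.000162) and fell by 1.18 (adjusted p = 0.000746). PRO1 changed in propagation by 0.10 (95% interval -0.44 to 0.65, adjusted p = 0.735) at 8 h and by 0.07 (95% interval -0.47 to 0.62, adjusted p = 0.816) at 30 h. PRO3, the pyrroline-carboxylate reductase shared with the use of arginine, rose by 1.13 (adjusted p = 0.0196) at fermentation 8 h, and differed by 0.79 (adjusted p = 0.0607) without array A of propagation 0 h. It also failed there without array B or C of fermentation 8 h. At propagation 30 h PRO3 fell by 0.91 (adjusted p = 0.0248), a call lost without array B or C of either group (adjusted p 0.0509 to 0.107).

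ASN1 and ASN2 encode the 2 asparagine synthetases. ASN1 read 8.27, 8.34 and 8.17 at fermentation 8 h, 7.29 and 8.11 at 30 h and 8.03, 7.57 and 7.52 at 60 h, against 9.25, 9.45 and 8.91 at propagation 0 h. It was lower on every fermentation array, and fell by 0.94 ± 0.25 (SE, adjusted p = 0.00897) at 8 h and fell by 1.50 ± 0.25 (SE, adjusted p = 0.000169) at 60 h. ASN2 read 9.84, 9.43 and 9.45 at fermentation 8 h, 9.10 and 9.15 at 30 h and 9.44, 9.66 and 9.43 at 60 h, against 9.22, 10.27 and 10.58, where array A of propagation 0 h lay among the fermentation arrays. It differed by -0.45 (95% interval -1.05 to 0.16, adjusted p = 0.27) at 8 h and -0.51 (95% interval -1.11 to 0.09, adjusted p = 0.168) at 60 h. Without that array ASN2 was lower at both times, with -0.85 (adjusted p = 0.00569) at 8 h and -0.91 (adjusted p = 0.00238) at 60 h. In propagation ASN1 read 9.25, 9.45 and 8.91 at propagation 0 h, 7.68, 7.28 and 7.48 at 8 h and 7.51, 7.84 and 7.81 at 30 h, and ASN2 read 9.22, 10.27 and 10.58 at propagation 0 h, 7.75, 7.70 and 7.40 at 8 h and 6.70, 7.16 and 7.10 at 30 h. Both were lower on all later arrays, ASN1 by 1.72 and 1.48 and ASN2 by 2.41 and 3.04. Whether the 2 genes differ in their fermentation change was not tested.

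At the same hours after pitching or inoculation the 2 stages differed in most synthesis genes. At 8 h 36 of 52 were higher and 7 lower in fermentation than in propagation, against 44.7% and 24.4% of all genes (69.2% changed). With recentred arrays the split was 29 and 11, counts given without their shares of all genes. At 30 h 31 were higher and 8 lower, against 37.5% and 27.9% (65.4% changed). The largest differences at 8 h were HIS4 at 4.57, SHM2 at 3.95 and TRP5 at 3.76, and at 30 h SHM2 at 4.81, SER1 at 4.32 and HIS6 at -4.28. Each of these comparisons sets 1 of the groups that stood apart against fermentation, so stage and the shift of those arrays cannot be told apart. The stage-by-time difference from 8 h to 30 h passed for none of the 52 genes in limma and for 15 of all genes (0.275%). At an unadjusted p under 0.05 it was 9 of the 52, and 6 passed with array weights. Shares of all genes for these counts are not given here, so neither is read as a result about the synthesis genes.

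GCN4, the transcriptional activator of general control, read 10.61, 10.82 and 10.73 at fermentation 8 h, 10.58 and 10.74 at 30 h and 10.24, 10.42 and 10.47 at 60 h, against 9.39, 11.29 and 11.46 at propagation 0 h. Array A of propagation 0 h was below every fermentation array, and B and C were above them. GCN4 differed from propagation 0 h by 0.01 (95% interval -0.81 to 0.82, adjusted p = 0.991) at fermentation 8 h and by -0.34 (95% interval -1.15 to 0.48, adjusted p = 0.516) at 60 h. Without array A of propagation 0 h GCN4 was lower at both times, with -0.65 (adjusted p = 0.0299) and -1.0 (adjusted p = 0.00132). In propagation it read 8.32, 7.78 and 7.68 at 8 h and 7.85, 8.25 and 7.92 at 30 h, below every array at 0 h, and fell by 2.79 (adjusted p = 7.93e-06) and fell by 2.70 (adjusted p = 9.99e-06). GCN2, for the kinase upstream of it, fell with it, by 2.31 at 8 h and 2.64 at 30 h. Of 20 regulators of these pathways, 2 rose and 9 fell at propagation 8 h (55% changed, against 67.4% of all genes), and 5 rose and 6 fell at 30 h (55%, against 67.3%). URE2, which holds Gln3 and Gat1 in check, fell by 2.61 and 2.02, while RTG1 rose by 1.90 and 2.44. At fermentation 60 h against 8 h 4 regulators rose and none fell (20% changed, against 15.9% of all genes), with GAT1 at 0.91, the lysine activator LYS14 at 0.85 and GZF3 at 0.72. Against propagation 0 h 6 rose and 1 fell at fermentation 60 h, led by GAT1 at 1.83 (35% changed, against 41% of all genes), and 1 rose and 3 fell at 8 h (20%, against 28.1%).

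Steps that feed the 9 pathways, 12 genes outside the main list, were read in the same fit. At fermentation 60 h against 8 h 4 rose and 1 fell, against 9.21% and 6.64% of all genes: AGX1, which makes glycine from glyoxylate, rose by 1.84, MTD1, a one-carbon dehydrogenase, by 1.28 and IDP1, the mitochondrial NADP isocitrate dehydrogenase, by 1.28. Against propagation 0 h 8 of 12 rose and none fell at 60 h, against 25.3% higher and 15.7% lower of all genes, with MTD1 at 2.89, the aromatic aminotransferase ARO9 at 2.23 and the aconitase ACO1 at 2.10. At 8 h 4 rose and 1 fell, with ARO9 at 3.27, against 16.5% and 11.5% of all genes. In propagation 4 rose and 5 fell at 8 h and 5 rose and 5 fell at 30 h, against 67.4% and 67.3% of all genes changed, with the mitochondrial aspartate aminotransferase AAT1 up by 2.09 and 2.32 and ADE3 down by 1.83 and 2.42.

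Genes that break down the same amino acids were counted as well. At fermentation 60 h against 8 h 3 of 14 rose and 3 fell, against 9.21% and 6.64% of all genes. The 3 that rose, GCV1 (1.71), GCV2 (1.47) and GCV3 (1.15), are subunits of the mitochondrial glycine cleavage complex. LPD1, on the same list and also a subunit, did not pass the F test over the fermentation times (adjusted p = 0.916). Those that fell were PUT1 (-2.40), the proline oxidase, CAR1 (-1.59), the arginase, and CHA1 (-1.07), the serine and threonine deaminase. Against propagation 0 h 8 rose and 3 fell at 60 h, led by CAR1 at -2.64, UGA1 at 2.29 and GAD1 at 2.19, against 25.3% and 15.7% of all genes. At 8 h 7 rose and 2 fell, led by CHA1 at 2.32, against 16.5% and 11.5%. In propagation 9 of 14 fell at 8 h (64.3%, against 43.1% of all genes fallen) and 8 at 30 h (57.1%, against 38.7%), and none rose, against 24.3% and 28.6% of all genes. The glutamate-degrading GDH2 fell by 4.61 and 4.04, more than any of the 52 synthesis genes at 8 h.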

How the data were processed

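Expression was measured with 17 Affymetrix yeast arrays of 10928 probe sets. The deposited values are log2 expression values, made by the authors with RMA per the submitters' processing notes, which give no version; they were used as deposited (2.17 to 14.07). A probe set was named from the platform annotation, for the 47 genes that had more than 1 probe set the brightest was taken, and 5449 S. cerevisiae genes were tested with no filter on low signal. The 1746 probe sets of another species gave the background percentile of each array. No raw intensities were analysed, and the number of arrays limits the precision.

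All arrays entered 1 linear model, with each group's mean as a term, in limma 3.58.1 (lmFit, eBayes) in R 4.3.3. Of 10 contrasts, 6 were main comparisons; tests were two-sided and adjusted by Benjamini-Hochberg over all 5449 genes, with calls at an adjusted p under 0.05. The fit was tested on simulated data: for fermentation 60 h against 8 h it recovered 35 of 100 genes changed by 1 and 92 of 100 changed by 2 (log2). The genes, the pathways and the other lists were chosen with earlier results of these data known. Values on every array are given for isozyme pairs and, per main comparison and pathway, for the gene with the largest change among those that passed without overlap between groups; GCN4 was always named, and up to 3 genes of any other list. Some genes of the other lists were not analysed here. Alternatives were other scalings, filters, variance models, array weights, subsets of arrays, a replicate block, averaging of the near-identical arrays, and leaving out each array. The titles' replicate letters were checked for pairing: residuals of same-letter arrays correlated at 0.338 to 0.776 between fermentation 60 h and 8 h, 0.317 to 0.638 between fermentation 8 h and propagation 0 h, and 0.165 to 0.509 between fermentation 60 h and propagation 0 h, so the letters were taken as pairs there, from the data and not the labels. In every other comparison at least 1 pair was under 0.1. The A arrays of these groups also had the largest gaps between 3-prime and 5-prime control signal. These gaps were 4.39 at propagation 0 h, 3.44 at fermentation 60 h and 3.10 at fermentation 8 h. The correlations cannot tell pairing apart from this shared trait of the A arrays, and its part in them was not tested. The block was fitted over all 17 arrays. The titles of fermentation 8 h and 30 h carry a mark the others lack; a batch behind it cannot be told apart from these groups.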

Additional observations from a re-analysis of the deposited data

How the results depend on the processing

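Under 27 alternative settings, of which 17 leave out 1 array, 1295 values of 50 named changes kept direction and side of the threshold, 55 no longer passed and none reversed. These 50 were picked among the largest changes that had passed, so their stability is partly set by that choice. Outside them GLN1 at fermentation 8 h against propagation 0 h differed by 0.05. With array weights it passed at -0.64 (adjusted p = 0.0359), in the other direction. The calls that held under every setting were 33 of 39 at propagation 8 h against 0 h, 36 of 41 at 30 h against 0 h, 5 of 8 and 0 of 3 at fermentation 60 h against 8 h and 30 h, and 8 of 21 and 16 of 26 at fermentation 8 h and 60 h against propagation 0 h. Counts of changed genes moved most with array weights: 40 in place of 8 at fermentation 60 h against 8 h, 21 in place of 3 against 30 h, 42 in place of 21 at fermentation 8 h against propagation 0 h, 6 in place of 0 at fermentation 30 h against 8 h, 6 in place of 0 for the stage-by-time difference and 39 in place of 8 in the F test. With only the arrays of the groups compared the counts were 20 at fermentation 60 h against 8 h, 9 at fermentation 8 h against propagation 0 h, 1 in place of 2 at propagation 30 h against 8 h, 2 for stage by time and 18 in the F test. Without the 3 arrays of low 5-prime signal they were 17 and 7 at fermentation 60 h against 8 h and 30 h, 11 at propagation 30 h against 8 h and 2 for stage by time. With arrays B and C of fermentation 8 h averaged they were 13 at fermentation 8 h against propagation 0 h, 1 at propagation 30 h against 8 h and 5 in the F test, and with quantile normalised arrays 1 at fermentation 60 h against 30 h and 1 for stage by time. Leaving out 1 array gave 5 to 19 genes at fermentation 60 h against 8 h, 0 to 6 against 30 h, 13 to 30 at fermentation 8 h against propagation 0 h, 1 to 8 at propagation 30 h against 8 h, 0 to 2 for stage by time and 4 to 16 in the F test, with the highest counts without array A of propagation 0 h. At fermentation 60 h against 30 h 1 gene passed without array B of fermentation 60 h, and 5 passed the F test without array A of fermentation 60 h. The cause of these shifts was not tested. Shares of all genes under these settings are not given here. The counts therefore cannot show whether the synthesis genes moved more than the array as a whole. The fits without arrays hold fewer samples. The array weights ran from 0.063 for array A of propagation 0 h to 11.18 for array B of fermentation 8 h, with 8.40 for its near-identical array C. Signal limits HOM3 and TRP4, which were near the background percentile on arrays of propagation 8 h and 30 h.

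With the replicate block 4 genes changed at propagation 30 h against 8 h in place of 2, where the letters were not taken as pairs, and the other counts stayed within 1.5 times of those without the block. In the 3 comparisons where the letters were taken as pairs, the block ended no call, and the calls it added stand beside their results. Shares of all genes with the block are not given here.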

Other observations

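Replicates of 1 vessel were not equally close in these genes. ARO3 read 7.59 on array A of propagation 0 h, against 10.76 and 11.07 on B and C, and GLN1 read 9.44 there, against 12.26 and 12.23. The median over the 52 genes was 8.30 on that array and 9.0 and 8.98 on the other two. HIS6, LYS1 and GDH3 were close on all 3 arrays, with an SD of 0.0592, 0.178 and 0.141.

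Between the 2 arrays of fermentation 30 h GLN1 differed by more than in the other fermentation groups, with 9.75 on B and 11.25 on C. Array C of that group lay closer to arrays B and C of fermentation 8 h over the 52 genes (SD of the differences 0.359 and 0.371) than to its own replicate B (0.413).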
